A study of Mus musculus with 4 samples.

Results

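The enzymes described here are 8 steps of the sterol synthesis pathway in the mouse, Hmgcs1, Idi1, Fdps, Fdft1, Sqle, Lss, Cyp51 and Dhcr7. They were chosen by name from the pathway with earlier results of these data known, so comparisons of the set with all genes are descriptive. A probe set was taken for a gene where the platform annotation gave it that single symbol. All 8 were measured, by 21 of the 45101 probe sets on the array, and all 8 were among the 12740 genes tested. Each gene is represented by its brightest probe set over the 4 arrays, and the others serve as a check.

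RNA was measured on Affymetrix expression arrays in GFP-sorted neural tube cells of E10.5 mouse embryos of mixed B6SJLF1 and ICR background, 2 arrays per population described by the submitters as biological replicates. In the Atoh1BAC-GFP line, GFP placed in a bacterial artificial chromosome marks cells that come from Atoh1-expressing progenitors, the dorsal interneuron 1 (dI1) population. In the dNeurog1-GFP line, an enhancer of Neurog1 drives GFP in dorsal cells of the dorsal interneuron 2 (dI2) population. No other allele or treatment is named for either group, all samples went through trypsin dissociation and cell sorting of the tube between forelimb and hindlimb, and how many embryos each array represents is not stated in the labels. The sort separated GFP-positive from GFP-negative cells, and reading the arrays as the positive fraction rests on the marker genes. Atoh1, on signals scaled to one trimmed mean, gave 21412 and 19675 with Atoh1-GFP RNA, compared with 1771 and 1861 with dNeurog1-GFP RNA. Neurog1 read 172 and 176 on the Atoh1-GFP arrays against 1388 and 2469 on the dNeurog1-GFP arrays. In a limma fit blocked on replicate number 5 of the 5 listed dI1 markers were called higher in Atoh1-GFP cells, and 4 in the unblocked fit (median log2 difference 3.14), and of the 5 dI2 markers 4 and 3 were called lower (median -3.06). Over all genes tested 2.78% were called higher and 3.73% lower with the block, and 0.22% in either direction without it. These marker levels run with the labels.

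Cells make cholesterol from acetyl-CoA through the mevalonate pathway. Hmgcs1 opens it by forming HMG-CoA, Idi1 interconverts the isoprene units, Fdps joins them into farnesyl diphosphate, and Fdft1 commits farnesyl diphosphate to squalene. Sqle oxidises squalene, Lss closes the rings to give lanosterol, Cyp51 removes a methyl group from lanosterol, and Dhcr7 acts at the end of the route. In most tissues these genes are induced together by the sterol regulatory element-binding proteins when membrane sterol is low. In the embryo cholesterol also modifies Hedgehog proteins, and loss of DHCR7 in people causes Smith-Lemli-Opitz syndrome, a malformation disorder.

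Idi1, Fdps, Sqle, Lss, Cyp51 and Dhcr7 had lower signals in Atoh1-GFP than in dNeurog1-GFP cells within replicate 1 and again within replicate 2, which is 6 of 8 enzymes. Over all genes tested, 33.7% were lower within both replicate numbers. Hmgcs1 and Fdft1 were lower within one replicate number and higher within the other. The median log2 difference (Atoh1-GFP minus dNeurog1-GFP) of the 8 enzymes was -0.47, with -0.35 within replicate 1 and -0.44 within replicate 2, against 0.01 over all genes. For 5 of the 8 both Atoh1-GFP signals of the brightest probe set lay below both dNeurog1-GFP signals, which held for 18.8% of all genes. This depended on the probe set, since the groups overlapped on the next brightest ones of Idi1 and Cyp51. In RNA from a sorted population, fewer cells making a transcript and less of it per cell cannot be told apart.

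Whether these differences passed a test depended on the model. Across all genes limma with Benjamini-Hochberg adjustment and no block called 0 of the 8 enzymes at an adjusted p under 0.05, where 0.22% of all genes were called, and 2 of the 8 (Idi1 and Lss) had an unadjusted p under 0.05, against 8.59% of all genes. The deposited arrays had been scaled to a trimmed mean of 250.001 for replicate 1 and 500.003 for replicate 2 in both populations, so the replicate number also marks 2 deposited scalings, each holding both populations. The labels name no batch. With that number as a block, 1 enzyme, Idi1, was called lower in Atoh1-GFP cells and 6 had an unadjusted p under 0.05. The same model called 3.73% of all genes lower, and 22.5% had an unadjusted p under 0.05 in either direction. The model with the block has 1 residual degree of freedom. The labels do not say whether the biological replicates were separate litters, so the p-values measure only the spread between these samples.

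The regulatory stretch in front of the genes is shown because coordinated control of this pathway is known to run through short promoter motifs. It is given for the members with a window, Idi1, Lss, Cyp51, Dhcr7 and Hmgcs1. Of these Hmgcs1 was not lower in Atoh1-GFP cells in both replicates by its brightest probe set, though 4 of its 5 probe sets were. RefSeq windows (build GRCm38.p6) run from 250 bases before to 50 after each annotated start, and the table held 7 windows for 5 of the members. They are printed 5′ to 3′ on the gene's own strand. Capitals mark exact matches on either strand to TCACNCCAC, the core of a sterol regulatory element, to CCAAT, the NF-Y box, and to GGGCGG, the GC box bound by Sp1 factors. No 2 of these matches overlap. The windows are chr13:119690101-119690400 (plus strand) for Hmgcs1, chr13:8885356-8885655 (plus) for Idi1, chr10:76531355-76531654 (plus) for Lss, chr5:4104648-4104947 (minus) for Cyp51 and chr7:143829964-143830263 (plus) for Dhcr7.
Hmgcs1: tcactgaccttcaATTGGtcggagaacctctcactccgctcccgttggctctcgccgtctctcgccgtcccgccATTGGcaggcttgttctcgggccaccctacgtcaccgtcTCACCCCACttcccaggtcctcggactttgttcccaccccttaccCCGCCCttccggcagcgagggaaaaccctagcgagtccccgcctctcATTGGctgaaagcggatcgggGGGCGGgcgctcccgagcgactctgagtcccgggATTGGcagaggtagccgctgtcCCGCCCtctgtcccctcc
Idi1: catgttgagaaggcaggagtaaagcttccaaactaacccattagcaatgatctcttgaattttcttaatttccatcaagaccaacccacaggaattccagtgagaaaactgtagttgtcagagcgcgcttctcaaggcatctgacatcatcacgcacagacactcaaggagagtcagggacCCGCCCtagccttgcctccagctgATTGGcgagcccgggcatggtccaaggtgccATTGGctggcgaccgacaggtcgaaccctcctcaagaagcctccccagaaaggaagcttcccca
Lss: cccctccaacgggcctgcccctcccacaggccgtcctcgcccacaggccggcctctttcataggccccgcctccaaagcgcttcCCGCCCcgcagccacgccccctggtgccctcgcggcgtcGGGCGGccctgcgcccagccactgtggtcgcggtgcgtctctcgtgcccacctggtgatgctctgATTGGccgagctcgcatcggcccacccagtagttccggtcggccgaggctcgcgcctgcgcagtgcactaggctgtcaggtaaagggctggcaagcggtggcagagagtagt
Cyp51: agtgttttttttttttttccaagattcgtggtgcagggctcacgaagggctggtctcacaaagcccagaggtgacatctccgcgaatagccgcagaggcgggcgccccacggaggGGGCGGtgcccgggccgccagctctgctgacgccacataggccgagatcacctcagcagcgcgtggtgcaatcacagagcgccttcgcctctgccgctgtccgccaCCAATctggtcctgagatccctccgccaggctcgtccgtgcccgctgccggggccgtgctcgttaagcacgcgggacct
Dhcr7: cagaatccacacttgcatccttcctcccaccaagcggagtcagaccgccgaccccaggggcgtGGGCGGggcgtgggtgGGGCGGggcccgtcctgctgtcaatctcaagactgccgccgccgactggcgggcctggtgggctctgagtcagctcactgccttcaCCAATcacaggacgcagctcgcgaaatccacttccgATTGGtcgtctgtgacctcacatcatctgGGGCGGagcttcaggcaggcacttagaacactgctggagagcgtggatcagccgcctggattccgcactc

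The sterol element core matched in 1 of the 7 windows, that of Hmgcs1, where its first base lay at -137 from the annotated start. It matched in 1.24% of the 32851 promoter windows of the same length. The NF-Y box matched in 5 of the 7 windows, against 37.4% of all windows, and the GC box in 6 of 7, against 35.7%. Hmgcs1 held 4 NF-Y boxes and 3 GC boxes, and Idi1 2 and 1. Lss held 1 NF-Y box and 2 GC boxes, and Cyp51 1 of each. Dhcr7 has 3 annotated windows, and the one printed is the one with the most matches, 2 NF-Y boxes and 3 GC boxes. The other two Dhcr7 windows held 1 GC box between them. These are matches of letters, not measured binding, and a window without a match says only that these letters are not in it.

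Hmgcs1, the cytosolic HMG-CoA synthase at the entry of the pathway, read 14791 and 11795 on the Atoh1-GFP arrays against 17522 and 10410 on the dNeurog1-GFP arrays. The groups overlapped, and the population difference turned its sign between the replicates, from -0.24 within replicate 1 to 0.18 within replicate 2. On the log2 scale the mean difference was -0.03 (standard error 0.27 without the block and 0.15 with it). Its 95% interval ran from -0.67 to 0.60 without the block and from -0.40 to 0.33 with it, so a difference of the size seen for other members lies inside the wider interval. Without the second Atoh1-GFP array the difference was 0.13, and without the first dNeurog1-GFP array 0.34. The other 4 probe sets of Hmgcs1 were each lower in Atoh1-GFP cells within both replicates, and over all 5 the mean difference ranged from -0.26 to -0.03.

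Idi1, the isopentenyl diphosphate isomerase, had the smallest adjusted p of the 8 enzymes. It read 3733 and 3041 on the Atoh1-GFP arrays against 5724 and 4568 on the dNeurog1-GFP arrays. Both Atoh1-GFP arrays were below both dNeurog1-GFP arrays, and the log2 difference was -0.61 within replicate 1 and -0.58 within replicate 2. The mean of -0.60 corresponds to a 1.51-fold higher signal in dNeurog1-GFP cells. With the block limma gave a standard error of 0.11 and an adjusted p of 0.035, and without it 0.23 and 0.50. The second Idi1 probe set, with signals of 2497 and 1386 against 3347 and 2370, differed by -0.42 and -0.76 within the replicates. On that probe set the groups overlapped.

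Fdps, the farnesyl diphosphate synthase, gave 3581 and 1606 with Atoh1-GFP RNA, compared with 4306 and 2226 with dNeurog1-GFP RNA. The groups overlapped, and the replicate arrays lay further apart than the populations. The log2 difference between replicate numbers (replicate 2 minus replicate 1, mean of both populations) was -1.04, while that between populations was -0.36 (-0.26 within replicate 1 and -0.46 within replicate 2). The adjusted p was 1.0 without and 0.14 with the block. Without the second Atoh1-GFP array the difference was 0.21 and without the first dNeurog1-GFP array 0.11, while without the first Atoh1-GFP array it was -0.93. A second Fdps probe set was too dim to be kept.

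Fdft1, the squalene synthase, showed the smallest difference of the 8 enzymes. It gave 3014 and 4697 with Atoh1-GFP RNA, compared with 2974 and 4776 with dNeurog1-GFP RNA, and the arrays of one replicate number were nearly level. The log2 difference was -0.002 (95% interval -0.27 to 0.27 with the block and -0.75 to 0.75 without it). It was 0.31 without the first Atoh1-GFP array, 0.34 without the second dNeurog1-GFP array and 0.014 after quantile normalization. The representative carries the suffix _x_at, which marks probes that may also bind related transcripts. A probe set of comparable brightness without that suffix gave signals of 2502 and 2032 against 2534 and 2178, a difference of -0.06. The remaining kept probe set, a dim one, had a difference of 0.65, from signals of 151 and 42.8 against 55.0 and 32.4. It passed the filter on dim signals, set at a mean signal of 63.5, only through the first Atoh1-GFP array. Its difference is therefore no support for a higher signal in Atoh1-GFP cells.

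Sqle, the squalene epoxidase, is read by 1 probe set. It read 3075 and 2383 on the Atoh1-GFP arrays against 4016 and 3114 on the dNeurog1-GFP arrays, without overlap of the groups. The log2 difference was -0.38 within each replicate number, and its standard error was 0.24 without and 0.11 with the block (adjusted p = 0.86 and 0.11). Without the second Atoh1-GFP array or the first dNeurog1-GFP array the difference was -0.20, and without either of the other arrays -0.56.

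Lss, the lanosterol synthase that closes the sterol rings, had the largest mean difference of the 8. It gave 424 and 602 with Atoh1-GFP RNA, compared with 783 and 814 with dNeurog1-GFP RNA, so that the populations did not overlap. The log2 difference was -0.63, a 1.55-fold higher signal in dNeurog1-GFP cells, with -0.84 within replicate 1 and -0.42 within replicate 2. The adjusted p was 0.57 without and 0.095 with the block. Without the first Atoh1-GFP array the difference was -0.39, and without the second -0.87. Its representative has the suffix _s_at, given to probe sets that may read more than one gene's transcripts. The remaining 2 Lss probe sets were lower in Atoh1-GFP cells within both replicates too, by mean differences of -0.26 and -0.89.

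Cyp51, the lanosterol demethylase, read 1937 and 1464 on the Atoh1-GFP arrays against 2411 and 2565 on the dNeurog1-GFP arrays. On this probe set no Atoh1-GFP array reached a dNeurog1-GFP array. The log2 difference was -0.55 (-0.31 within replicate 1 and -0.80 within replicate 2), with an adjusted p of 0.60 without and 0.092 with the block. Without the second Atoh1-GFP array it was -0.36, and without the first -0.75. The other 2 probe sets gave smaller differences of -0.30 and -0.18, both lower within each replicate number. The first of these was nearly as bright, and its groups overlapped (2300 and 1391 against 2734 and 1775). Those of the dimmer one did not.

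Dhcr7, the reductase at the end of the route, gave 741 and 1004 with Atoh1-GFP RNA, compared with 1183 and 1429 with dNeurog1-GFP RNA from its 1 probe set. The populations did not overlap, and the log2 difference was -0.57, a 1.49-fold higher signal in dNeurog1-GFP cells (-0.65 within replicate 1 and -0.50 within replicate 2). Without the first Atoh1-GFP array it was -0.36, and without the second -0.79. Limma's adjusted p was 0.64 with no block and 0.061 with one. With the block and the signals as deposited, Dhcr7 passed the threshold at an adjusted p of 0.038.

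Probe sets of one gene share its transcripts and are not replicates, but they are separate readings of it. Of the 21 probe sets 19 passed the filter on dim signals. Within both replicate numbers 16 of the 19 were lower in Atoh1-GFP cells, 1 was higher and 2 went opposite ways. The 2 opposite ones were the brightest probe sets of Hmgcs1 and Fdft1, and the higher one was the dim probe set of Fdft1. That dim probe set passed the filter only through the first Atoh1-GFP array. Of the 5 genes with more than 1 kept probe set, Idi1, Lss and Cyp51 had all theirs lower in both replicates, Hmgcs1 had 4 of 5 and Fdft1 1 of 3.

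**Figure D1:**
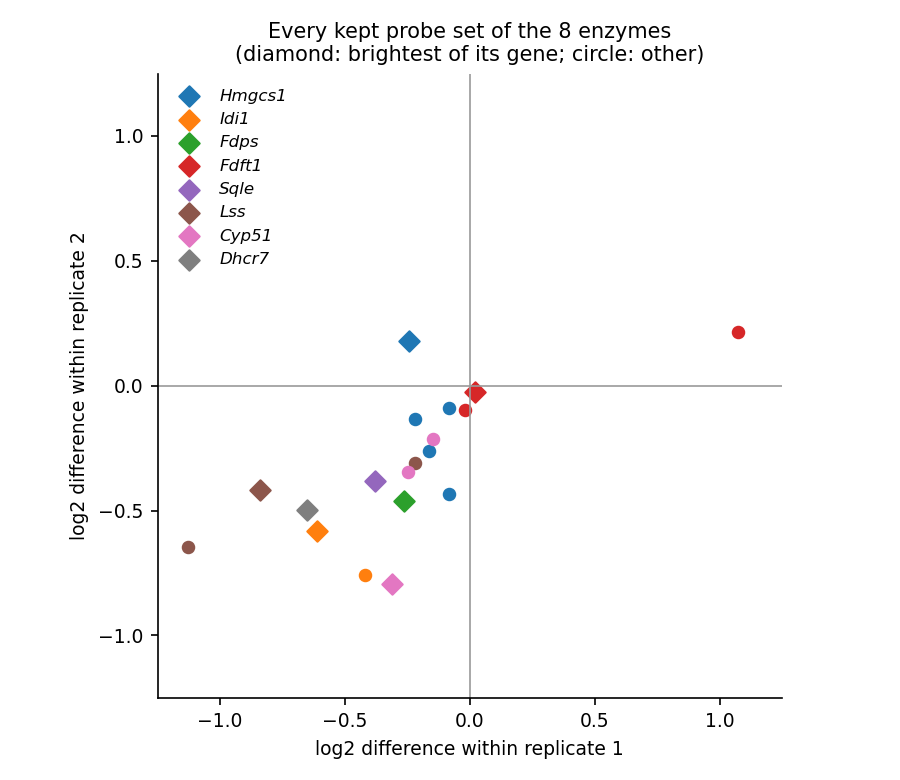
The log2 difference (Atoh1-GFP minus dNeurog1-GFP) within replicate 1 on the horizontal axis and within replicate 2 on the vertical axis, for the 19 kept probe sets, coloured by gene. The area below 0 on both axes holds 16 of the 19, and the point far to the right is the dim Fdft1 probe set with a mean difference of 0.65.

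Along the pathway the differences were uneven. In order of the mean difference the members ran Lss, Idi1, Dhcr7, Cyp51, Sqle, Fdps, Hmgcs1 and Fdft1, from -0.63 to -0.002. The leading 4 lay between -0.63 and -0.55, a span smaller than the standard error of any of them in either model. The order depends on the probe set. With the mean of all kept probe sets Cyp51 was at -0.34, after Sqle at -0.38. Sqle (-0.38) and Fdps (-0.36) also lay closer to each other than their standard errors. Differences between members were not tested.

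The other enzymes of the route, listed by their place in the pathway, gave 11 measured genes of 14 listed, and the others were not analysed here. With the block 1 of the 11, Msmo1, was called, in the direction of lower signal in Atoh1-GFP cells, and 0 were called without the block. Of all genes 3.73% were called lower with the block. Msmo1, the sterol methyl oxidase that acts after Cyp51, read 2506 and 1435 on the Atoh1-GFP arrays against 4266 and 2497 on the dNeurog1-GFP arrays. On the log2 scale it differed by -0.77 (-0.76 within replicate 1 and -0.79 within replicate 2, standard error 0.11, adjusted p = 0.018 with the block and 0.67 without). The groups overlapped across replicate numbers, since 2506 in one Atoh1-GFP array exceeds 2497 in one dNeurog1-GFP array. A second, much dimmer Msmo1 probe set differed by -0.04.

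Between Hmgcs1 and Idi1, the mevalonate kinase Mvk (-0.17), the phosphomevalonate kinase Pmvk (-0.04) and the decarboxylase Mvd (-0.14) had differences smaller than their standard errors. Ggps1, which turns farnesyl diphosphate toward geranylgeranyl groups and away from sterols, was the one enzyme of this list whose signal was higher in Atoh1-GFP cells without overlap (0.34, adjusted p = 0.17 with the block). After Cyp51, Lbr, the lamin B receptor that is also a sterol reductase, had a difference of -0.54 (adjusted p = 0.072 with the block). Tm7sf2, the second sterol reductase at that step, had -0.29 and Nsdhl -0.30. Hsd17b7 had 0.13, Ebp -0.08 and Sc5d -0.07. For Sc5d this depended on the probe set. A somewhat dimmer one (mean signal 471 against 657) differed by -0.73, with -0.60 within replicate 1 and -0.86 within replicate 2. A much dimmer Sc5d probe set, at a mean signal of 72.5, differed by -0.08. The median of the 11 was -0.14, and 7 were lower and 2 higher in Atoh1-GFP cells within both replicates. Members and these genes together are 19 enzymes, of which 13 were lower within both replicates and 2 were called with the block. Over all genes 33.7% were lower within both replicates and 3.73% were called lower with the block.

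**Figure D2:**
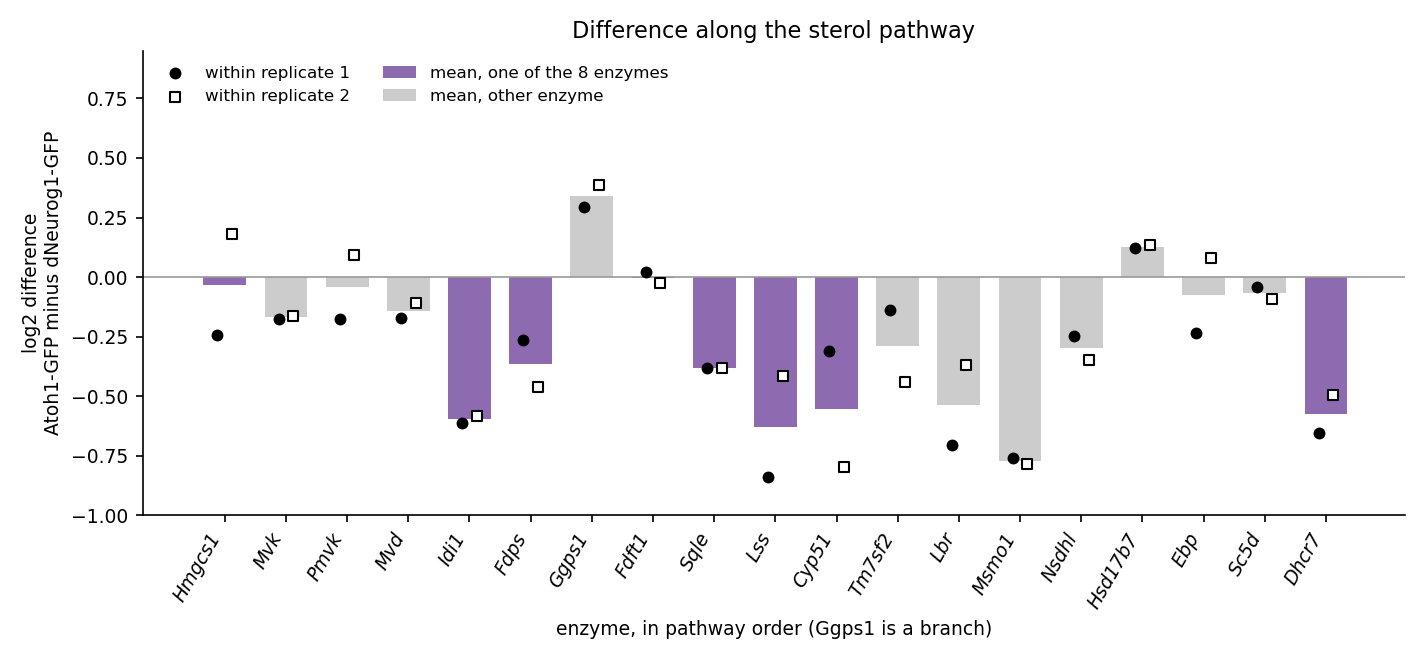
Log2 difference (Atoh1-GFP minus dNeurog1-GFP) of 19 sterol synthesis enzymes in pathway order, as the mean (bars, purple for the 8 enzymes) and within each replicate number (points). Each enzyme is shown by its brightest probe set. Bars beyond -0.5 stand at Idi1, Lss, Cyp51, Lbr, Msmo1 and Dhcr7, and those of Mvk, Pmvk and Mvd lie between -0.17 and -0.04.

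Of 13 listed genes for sterol sensing and uptake 10 were measured, while the others were not analysed here. With the block 1 was called lower in Atoh1-GFP cells, beside 3.73% of all genes. It was Scap, which escorts the sterol regulatory element-binding proteins out of the endoplasmic reticulum. Scap gave 626 and 931 with Atoh1-GFP RNA, compared with 1323 and 1362 with dNeurog1-GFP RNA, which is a difference on the log2 scale of -0.79 (standard error 0.17, adjusted p = 0.047 with the block and 0.42 without). Srebf2, the transcription factor gene most tied to sterol enzymes, differed by -0.13. It was at -0.34 within replicate 1 and at 0.09 within replicate 2, and its second probe set differed by 0.23. Srebf1, tied more to fatty acid genes, had -0.52 (adjusted p = 0.084 with the block). Insig1, which holds Scap back and is itself a target of the pathway's factors, had signals of 1369 and 1791 against 2412 and 2140, and so differed by -0.53 (-0.80 within replicate 1 and -0.25 within replicate 2, adjusted p = 0.12 with the block). The median of the 10 was -0.33, with 6 lower and 1 higher within both replicates, beside 33.7% of all genes lower within both.

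Genes that move sterol through and out of cells went both ways. Of 16 listed genes 15 were measured, and Soat1 was not analysed here. With the block 2 were called higher in Atoh1-GFP cells and 2 lower, beside 2.78% of all genes called higher and 3.73% called lower, and 0 were called without the block. Apoe, the carrier of lipid between cells, read 552 and 447 on the Atoh1-GFP arrays against 239 and 198 on the dNeurog1-GFP arrays, a 2.12-fold difference (log2 1.08, adjusted p = 0.028 with the block and 0.23 without). Abca1, the pump that loads sterol onto apolipoproteins, read 1017 and 1685 against 594 and 1135, with overlap of the groups, and differed by 0.65 (adjusted p = 0.045 with the block and 0.81 without). On the other side stood the lipoprotein receptors Lrp2 (-1.38, adjusted p = 0.04995 with the block) and Vldlr (-0.72, adjusted p = 0.049 with the block), at 0.40 and 0.47 without it. Vldlr has 5 kept probe sets with mean differences between -0.91 and -0.14. Lrp2 passed the filter on dim signals, set at a mean signal of 63.5, only through the dNeurog1-GFP arrays, the group where it is high, so its call is no support for a difference. In addition 1 of its 3 kept probe sets differed by 0.38 in the opposite direction. Its representative stood at 41.8 and 56.8 in Atoh1-GFP cells against 217 and 145 in dNeurog1-GFP cells. The list's median was 0.10.

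In the neighbouring fatty acid pathway all 10 listed genes were measured. With the block 2 were called lower in Atoh1-GFP cells, beside 3.73% of all genes. Scd1, a stearoyl-CoA desaturase, gave 439 and 424 with Atoh1-GFP RNA, compared with 957 and 1183 with dNeurog1-GFP RNA, a 2.37-fold higher signal in the latter (log2 -1.24, adjusted p = 0.014 with the block and 0.13 without). Elovl6, a fatty acid elongase, differed by -0.59, at an adjusted p of 0.041 with the block and 0.48 without, and its other 2 probe sets differed by -0.58 and, at dim signals, by 0.49. The second Scd1 probe set differed by -0.69. Fasn, the fatty acid synthase, had -0.21 and Scd2 0.01. The median was -0.24, with 6 genes lower and 2 higher within both replicates, beside 33.7% of all genes lower within both. In the isoprenoid branch, which uses farnesyl diphosphate for protein prenylation, dolichol and ubiquinone, 6 of 7 listed genes were measured, 0 were called in either model and the median was -0.02.

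Markers of cell state differed between the same populations. Of 8 cell cycle genes 7 were measured. All 7 were lower in Atoh1-GFP cells within both replicates, 4 were called with the block, and their median was -0.75. Their summed signal was 32006 and 32881 on the Atoh1-GFP arrays against 52010 and 47298 on the dNeurog1-GFP arrays. Of 8 neural progenitor genes 6 were lower within both replicates and 4 were called lower with the block (median -0.99, summed signal 41468 and 32724 against 59781 and 42568). All 8 genes of newborn neurons were higher within both replicates and 5 were called with the block (median 0.74, summed signal 54810 and 58011 against 29460 and 40002). Of all genes 3.73% were called lower and 2.78% higher with the block. Within both replicates 33.7% of all genes were lower, and 4242 of 12740 were higher. None of the genes of these 3 lists was called without the block. The part of these shifts in the differences of the sterol enzymes was not tested.

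Markers of cells that a neural tube sort may carry over gave differing signals. The 5 endothelial markers summed to 1502 and 608 on the Atoh1-GFP arrays against 591 and 489 on the dNeurog1-GFP arrays. The 4 heart muscle markers summed to 1544 and 3305 against 387 and 1855. The 4 blood markers measured summed to 23987 and 23476 against 6438 and 17627, and 2 of them, Hba-a1 and Ptprc, were too dim to be kept. The 6 mesenchyme markers went opposite ways in the replicates, at 5831 and 4124 against 2719 and 6378. The median log2 difference was 0.70 for the 5 endothelial markers, 1.65 for heart muscle, 1.29 for the 2 kept blood markers and 0.17 for mesenchyme. Several of these markers read below the filter level of 63.5 on some arrays, and their detection was not tested. With the block the heart muscle gene Myl7 alone among the kept genes of these lists was called. Myl7 read 198 and 735 against 59.3 and 51.2 and passed the filter only through the Atoh1-GFP arrays, where it is high. Myh6, Pecam1 and Tek likewise passed only through Atoh1-GFP arrays, so the heart muscle and endothelial medians are no support for a difference. Their part in the differences of the sterol enzymes was not tested.

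**Figure D3:**
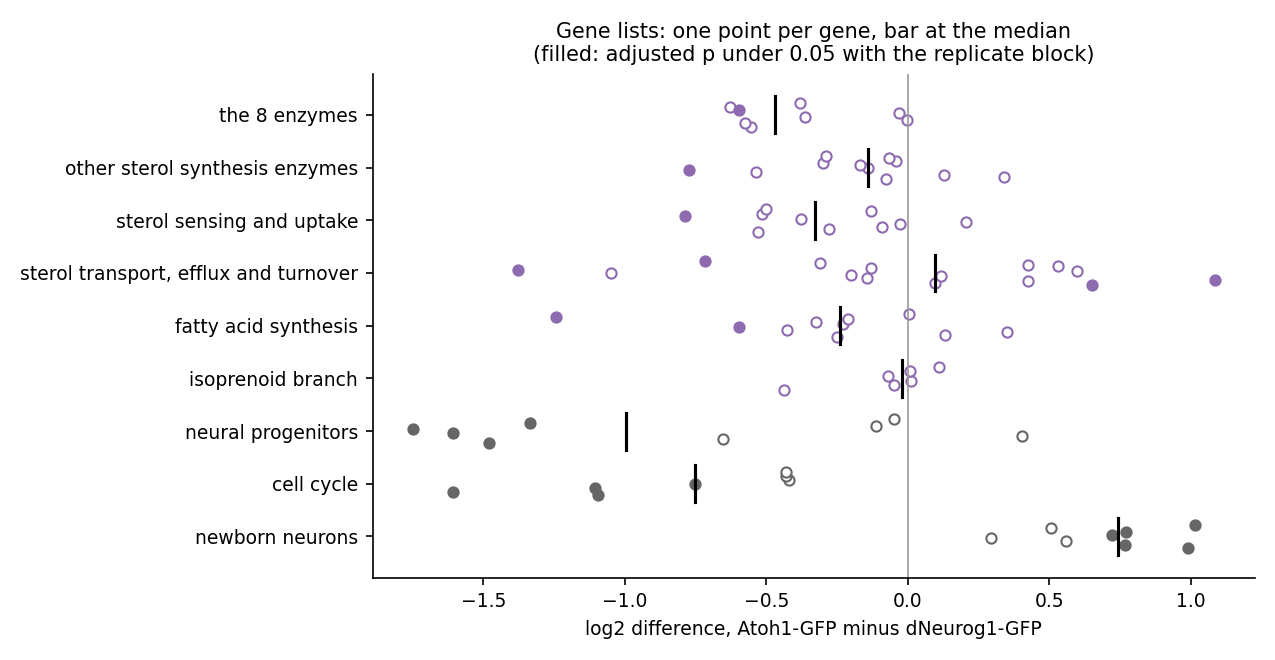
Log2 difference (Atoh1-GFP minus dNeurog1-GFP) of each gene in 9 lists, with the list median as a bar and genes called with the replicate block filled. The 8 enzymes have a median of -0.47, the cell cycle list -0.75 and the newborn neuron list 0.74.

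The genes outside the lists whose 4 log2 values, centred on their mean, lay nearest to the median profile of the 8 enzymes were Pigv, Polr1b and Zfp961, at Euclidean distances of 0.043, 0.047 and 0.056 over 4 arrays. Their own differences were -0.31, -0.31 and -0.30, and 0 of the 3 were called with the block.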

How the data were processed

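RNA of 4 samples was hybridised to 1 Affymetrix array each. The deposited values are intensity signals on a linear scale, made with MAS5, per the submitters' processing notes. The sources used here give neither a version nor a target, so scale and trimmed means were read from the values. MAS5 multiplies each array by a constant. The deposited 2% trimmed means were 250.001 (replicate 1) and 500.003 (replicate 2) in both populations, so all arrays were put on 500 before the test, and median signals were then 138, 76.0, 115 and 75.4 (Atoh1-GFP replicates 1 and 2, dNeurog1-GFP replicates 1 and 2).

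The 64 control probe sets were left out. Probe sets with a mean signal at or above the 40th percentile (63.5) were kept, 27022 of 45037, and 22866 of these had 1 gene symbol. Differences on log2(signal + 32), a scale that understates changes of dim genes, were fitted with limma 3.58.1 in R 4.3.3 (eBayes with an intensity trend) across 12740 genes, with Benjamini-Hochberg adjustment and a threshold of 0.05, without a block and, as the alternative, with the replicate number as a block. The median prior degrees of freedom were 4.9 and 5.1, against 2 and 1 residual ones. Simulated arrays carried, for each gene, the replicate shift and the spread that the fit with the block estimated from these data. There the fit without the block called none of the changed genes, an outcome largely built in by that setting. In the real data it called 28 genes. With 2 arrays per population its low counts still say little about the absence of differences. On the same simulated arrays the fit with the block called most of the changed genes. That outcome holds for the sizes of change that were simulated. It does not show that differences of the size seen for the enzymes would be called. The fit with the block also called more unchanged genes than its threshold allows, so its calls are less firm than the adjusted p states. The number of arrays limits the precision.

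The members, lists and the choice of a common trimmed mean were made with earlier results of these data known. Named genes are all members, genes of the pathway lists called in either model, Atoh1 and Neurog1, 5 fixed regulators and enzymes where measured, and the 3 nearest profiles. Further list genes named as examples were chosen after their values were seen.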

Additional observations from a re-analysis of the deposited data

How the results depend on the processing

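Of the 8 enzymes 0 were called in any of the settings without the block, and the median difference was negative in all settings, from -0.54 to -0.34 when 1 array was left out. It was -0.37 with the mean of all kept probe sets per gene (with or without the block) and -0.35 on the replicate 1 arrays alone. Same-numbered arrays deviated together from their group means (r = 0.66 across 12740 genes, which are not independent), a hint from the data and not from the labels. With 2 arrays per population the 2 pairs give the same r. Same-numbered arrays also had similar median signals after scaling (138 and 115 for replicate 1, 76.0 and 75.4 for replicate 2). With the replicate block 1 enzyme and 829 genes were called. With the replicate block and the signals as deposited 2 enzymes (Idi1 and Dhcr7) and 1169 genes were called. The other combinations were chosen after the data were seen. With the replicate block and quantile normalization 4 (Idi1, Lss, Cyp51 and Dhcr7) and 1726 were called, and with the block and one 75th percentile 3 (Idi1, Cyp51 and Dhcr7) and 1200. With the block and the mean of all kept probe sets 1 and 700 were called, with the block and a pseudocount of 16 it was 1 and 898, and with the block and a pseudocount of 64 it was 1 and 860. Idi1 passed in each of these 7 fits with the block.

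Over all genes 28 were called without the block, 16 higher and 12 lower in Atoh1-GFP cells. The count was 13 with the signals as deposited (1 higher and 12 lower), 18 with one 75th percentile (7 and 11), 14 without the filter (7 and 7) and 18 with the filter at the 60th percentile (9 and 9). It was 14 with the mean of all probe sets and 0 without the intensity trend, where limma gave 978 genes an unadjusted p under 0.05. Leaving out 1 array gave 153 to 380, fits with 1 residual degree of freedom in which the lone array is assumed to vary like the others. Fdft1, Hmgcs1 and Fdps turned sign. Fdft1 was 0.014 after quantile normalization (with or without the block), 0.19 with the mean of all probe sets (with or without the block), 0.019 on the replicate 1 arrays alone and -0.34 to 0.34 with arrays left out. The mean of all probe sets includes the dim Fdft1 probe set that passed the filter only through the first Atoh1-GFP array. Hmgcs1 was 0.18 on the replicate 2 arrays alone and up to 0.34 with 1 array left out (from -0.41), and Fdps between -0.93 and 0.21. The cause was not tested. The median of all genes lay between -0.03 and 0.02 in all settings that used both replicate numbers.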

Other observations

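The enzymes also differed between the replicate numbers within one population, in a way that depended on the probe set. The representative of Fdft1 had signals of 3014 and 4697 on the replicate 1 and 2 arrays of Atoh1-GFP cells, while the next Fdft1 probe set had 2502 and 2032 on the same arrays. One Hmgcs1 probe set had 4799 and 1792 there and another 8307 and 9273. Fdps had 3581 and 1606. The mean log2 difference of replicate 2 minus replicate 1 over both populations ran from -1.04 for Fdps to 0.66 for Fdft1, a wider span than the population differences of -0.63 to -0.002.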
